A study of Mus musculus with 2 samples.

Results

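Heat shock proteins are molecular chaperones: they hold unfolded or newly made proteins and help them fold. The HSP70 proteins work with J-domain partners and nucleotide exchange factors, the HSP90 proteins finish the folding of kinases and receptors, HSP60 and its lid HSP10 form a folding chamber in mitochondria, and the small heat shock proteins bind unfolded proteins without using ATP. Some of the genes are active in every growing cell, while others are nearly silent until heat or other stress activates heat shock factor HSF1. Enzymatic dissociation of tissue is also known to induce the stress-inducible members together with immediate early genes such as Fos and Jun. The genes described here are the 10 rows, of 55450 gene rows in the deposited matrices, with the symbols Hspa1a, Hspa1b, Hspa8, Hsp90aa1, Hsp90ab1, Dnajb1, Hsph1, Hspe1, Hspd1 and Hspb1; all 10 were found by symbol.

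The series holds 2 single-cell libraries of microglia, the resident macrophages of the brain, taken 3 days into repopulation of the brain and sorted as CD11b high, CD45 low cells from C57BL/6 mice. The control library comes from mice with loxP-flanked Hk2 alleles (Hk2 fl/fl), and the Hk2 cKO library from mice that carry the same alleles and Cx3cr1CreER, a tamoxifen-activated Cre recombinase under the control of Cx3cr1, a gene that other mononuclear phagocytes also use. Hk2 encodes hexokinase 2, which starts glucose use in glycolysis. The protocol describes 100 μg tamoxifen on consecutive days soon after birth or as indicated. The labels give no age, sex, number of animals per library or method of depletion, and do not state whether the control mice received tamoxifen. The brains were minced and digested with collagenase IV and DNase I before the sort. With 1 library per genotype no difference between genotypes has a replicate check and no p-value is given; intervals are exact 95% Poisson intervals of the counts and cover counting error only.

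The fl/fl library held 37476201 unique molecular identifiers (UMIs, each counting 1 captured transcript 3′ end) in 3089 barcodes, and the cKO library 32896996 UMIs in 2607 barcodes; 2 barcode sequences occurred in both. After filtering, 2465 of 2824 fl/fl cells (87.3%) and 2008 of 2300 cKO cells (87.3%) were in clusters that carried the microglial markers, with median depths of 10167 and 12012.5 UMIs. The 16 microglial markers were detected on average in 91.9% and 92.0% of these cells, with Sall1 the lowest at 43.9% and 49.1%. Hk2 was at 166.5 CPM (a gene's UMIs scaled to a total of 1000000) in the fl/fl and 43.4 CPM in the cKO microglia-like cells. UMIs of S100a8, a neutrophil gene, were found in 15.3% and 13.8% of microglia-like cells; free RNA and doublets cannot be told apart in this share.

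Hspa1a and Hspa1b, which encode the 2 stress-inducible HSP70 proteins, are single-exon genes on the minus strand of chromosome 17 (GRCm38, GENCODE M21: chr17:34969190-34972156 and chr17:34956436-34959238), with start sites 12918 bases apart. Their transcripts were 99.5% identical over the first 2000 bases and 45.6% identical over the last 700 bases, the end that the 3′ reads count, so counts could be split between the genes although a read in the shared stretch could not be assigned to one of them. The gene Gm20481, annotated over Hspa1a on the other strand, had 0 UMIs in microglia-like cells of either library. Hspd1 (chr1:55077835-55088243, minus strand), encoding HSP60, and Hspe1 (chr1:55088132-55091307, plus strand), encoding HSP10, lie head to head and their annotations overlap by 112 bases at the 5′ ends. Hspa8 (chr9:40800984-40810087), Hsp90aa1 (chr12:110690605-110702728), Hsp90ab1 (chr17:45567775-45573271), Hsph1 (chr5:149614287-149636376), Hspb1 (chr5:135887919-135889563) and Dnajb1 (chr8:83608193-83612653) complete the set.

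HSF1 binds inverted repeats of GAA, so promoters of members with such repeats are shown, the repeats in capitals. RefSeq promoter windows (GRCm38.p6, 250 bases before to 50 bases after a start site) were matched for 7 of the 10 genes. The pair of stress-inducible HSP70 genes and the small heat shock protein gene Hspb1 carry repeats of the form GAANNTTC within 250 bases before their start sites. Hspa1a and Hspa1b each have 1 such repeat, 104 bases before the start site, and 98.8% of the bases in these 2 stretches are identical; Hspb1 has 2.
Hspa1a, chr17:34972157-34972406, minus strand: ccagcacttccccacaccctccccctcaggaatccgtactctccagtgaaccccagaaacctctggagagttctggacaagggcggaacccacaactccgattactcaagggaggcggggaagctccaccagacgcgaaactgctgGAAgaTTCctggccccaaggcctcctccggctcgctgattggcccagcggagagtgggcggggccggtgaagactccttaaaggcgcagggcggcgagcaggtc
Hspa1b, chr17:34959239-34959488, minus strand: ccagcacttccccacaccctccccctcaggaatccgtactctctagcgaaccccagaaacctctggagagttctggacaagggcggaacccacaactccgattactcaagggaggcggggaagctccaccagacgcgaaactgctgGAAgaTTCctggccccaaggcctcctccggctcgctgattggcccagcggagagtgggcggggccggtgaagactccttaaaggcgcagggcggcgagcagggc
Hspb1, chr5:135887669-135887918, plus strand: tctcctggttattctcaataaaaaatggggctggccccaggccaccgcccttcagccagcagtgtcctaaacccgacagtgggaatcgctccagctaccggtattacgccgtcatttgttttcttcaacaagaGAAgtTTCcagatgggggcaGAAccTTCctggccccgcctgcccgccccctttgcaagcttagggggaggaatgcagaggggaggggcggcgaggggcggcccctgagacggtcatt

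The genes of the mitochondrial chaperonin share 1 promoter region between them, and it holds a run of alternating units that overlap each other. For Hspd1 the run is in the window chr1:55087883-55088182, while the window of its other start site, chr1:55088194-55088493, held no pair. Hsph1, encoding the HSP110 nucleotide exchange factor of HSP70, has a shorter run 37 bases after the first of its 2 annotated start sites.
Hspe1 and Hspd1, chr1:55088053-55088082, plus strand: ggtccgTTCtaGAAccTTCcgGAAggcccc
Hsph1, chr5:149636287-149636306, minus strand: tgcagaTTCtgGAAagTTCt
Of 32851 RefSeq promoter windows of 300 bases, 7.86% held GAANNTTC and 8.52% held TTCNNGAA, motifs that read the same on both strands and can overlap by 1 unit. A run of 3 alternating units, starting with either, was in 0.603% of the windows. Either pair was in 15.1% of the windows. Among the 7 matched members, 6 held a pair (all but Dnajb1), and Hspd1, Hspe1 and Hsph1 held a run of 3. A match describes the letters only.

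In microglia-like cells the 10 genes together took 0.452% of all fl/fl UMIs and 0.432% of all cKO UMIs. A UMI marks 1 transcript end whatever the transcript's length, so levels are given as CPM and not per kilobase. Hsp90ab1, the constitutive HSP90, ranked 79th by mean CPM among the 7812 genes that averaged 10 CPM or more. Hspa8, the constitutive HSP70, ranked 159th, Hsp90aa1, the inducible HSP90, 263rd and Hspe1 279th. Lower down came Hspd1 at rank 1064, Dnajb1, a J-domain partner of HSP70, at 1334 and Hspa1a at 1413. Hspb1 (HSP27) came at rank 5385 and Hsph1 at 6809, and Hspa1b, at a mean of 9.95 CPM, fell just under 10 CPM and is not counted among the 9 measured members.

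Between genotypes the abundant chaperones were nearly equal. Hspa8 was at 954 CPM (943 to 964) in fl/fl and 939 CPM (927 to 950) in cKO microglia-like cells, a log2 ratio of cKO over fl/fl of -0.02 after 1 CPM was added to each. Hsp90aa1 was at 534 and 544 CPM (log2 ratio 0.03), and Hspe1 at 519.8 and 516 CPM (-0.01). The intervals of the 2 libraries overlapped for these 3 genes. Hsp90ab1 was at 2098 CPM (2082 to 2114) and 1905 CPM (1889 to 1921), intervals that do not overlap, at a log2 ratio of only -0.14. Hspd1 was at 149 CPM (145 to 154) in fl/fl and 140.2 CPM (136 to 145) in cKO cells, a log2 ratio of -0.09.

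Hspa1a and Dnajb1 differed by less than the size used for a call, and Hspa1b was higher in cKO cells. Hspa1a was at 100.1 CPM (96.7 to 104) in fl/fl and 118 CPM (114 to 122) in cKO cells, a log2 ratio of 0.24. Dnajb1 was at 111 CPM (107 to 114) and 119 CPM (115 to 123), a log2 ratio of 0.10. Hspa1b was at 7.54 CPM (6.63 to 8.54) and 12.4 CPM (11.1 to 13.7), a log2 ratio of 0.65.

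The 2 remaining genes were lower in cKO cells. Hsph1 was at 16.4 CPM (15.04 to 17.8) in fl/fl and 11.8 CPM (10.6 to 13.2) in cKO cells, a log2 ratio of -0.44. Its call was lost with sums of thinned cells (-0.41), in cells of neither cycle group (-0.11) and in the lowest tertile of immediate early gene level (-0.12). Hspb1 was at 28.4 CPM (26.6 to 30.3) and 16.5 CPM (15.02 to 18.0), a log2 ratio of -0.75. A gene is called here when its higher CPM is at least 25% above its lower CPM and their intervals do not overlap. Of the 9 measured members 0 were called higher and 2, Hsph1 and Hspb1, lower in cKO cells, where 3.52% of the 7812 genes were called higher and 2.88% lower. The median log2 ratio was -0.02 over the 9 members and -0.04 over all 7812 genes.

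**Figure D1:**
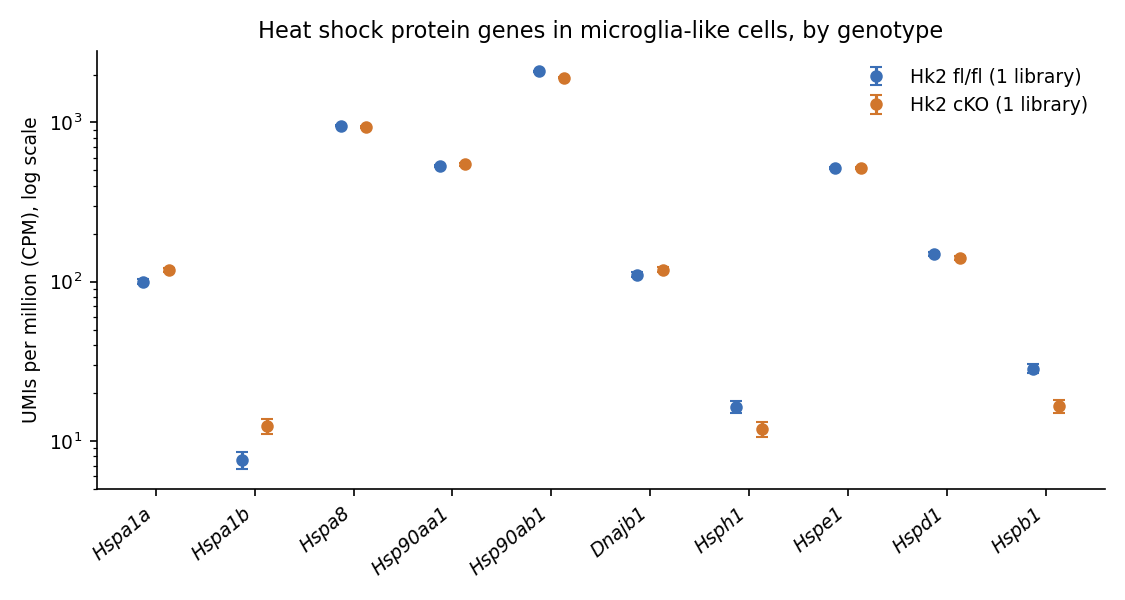
CPM (log scale) of the 10 heat shock protein genes in microglia-like cells of the Hk2 fl/fl library (blue) and the Hk2 cKO library (orange), with exact 95% Poisson intervals of the counts. The points of a gene nearly coincide except for Hspa1b (7.54 and 12.4 CPM), Hsph1 (16.4 and 11.8 CPM) and Hspb1 (28.4 and 16.5 CPM).

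Hspa1a and Dnajb1 varied far more between microglial states than between genotypes. Microglia-like cells fell into 9 clusters, made without the 10 members among the variable genes. The summed level of 16 immediate early genes set off clusters 0 and 11, at 729 and 1963 CPM in fl/fl and 670 and 900 CPM in cKO cells, from the other 7, at 6324 to 15836 CPM. Cluster 0 (92 fl/fl and 105 cKO cells) was led by the mitotic genes Cdc20 and Pbk and cluster 11 (206 and 286 cells) by mt-Rnr1 and mt-Rnr2. These clusters were among the shallowest, with median depths of 7008 to 7784 UMIs, but cluster 5, with the highest immediate early gene level, had 7802 UMIs in fl/fl cells. The pair was singled out after the immediate early gene levels were seen. All cells went through enzymatic digestion, and the part of dissociation in these levels was not tested.

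Hspa1a, Dnajb1 and Hspb1 were low in clusters 0 and 11 in both libraries, and Hspa1b in cKO cells. Hspa1a was at 16.8 CPM there against 107 CPM in the other fl/fl microglia-like cells, and at 13.7 against 132 CPM in cKO cells (log2 ratios -2.60 and -3.18). In cKO cells of cluster 0 it was 3 UMIs in all, 3.14 CPM (0.65 to 9.18). Dnajb1 was at 25.6 against 118 CPM in fl/fl and at 28.2 against 131 CPM in cKO cells (log2 ratios -2.16 and -2.17).

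Hspb1 was at 3.82 against 30.6 CPM in fl/fl and at 5.95 against 17.9 CPM in cKO cells. Hspa1b was at 1.19 CPM (4 UMIs, 0.32 to 3.05 CPM) in the 391 cKO cells of these clusters and 13.9 CPM in the other cKO cells, but at 4.97 against 7.76 CPM in fl/fl cells, where the intervals overlap. In fl/fl cluster 11 Hspa1b was at 6.15 CPM, above its 3.27 CPM in cluster 1. The mitochondrial pair went the other way. Hspe1 was at 702 against 504 CPM in fl/fl and 696 against 492 CPM in cKO cells, and Hspd1 at 209 against 144 CPM and at 168 against 136 CPM.

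In counts of calls, 3 of the 9 measured members were lower in clusters 0 and 11 in fl/fl and 4 in cKO cells (Hspa1a, Dnajb1 and Hspb1 in both, Hsp90aa1 in cKO). The same call reached 34.3% and 41.1% of all genes. Higher were 2 members in fl/fl (Hspe1 and Hspd1) and 1 in cKO cells (Hspe1), beside 14.1% and 15.4% of all genes. Hspa8, the constitutive counterpart of Hspa1a, was at 934 against 955 CPM and at 949 against 937 CPM.

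At the other end stood clusters 4 and 5. In cluster 4, with Fosb and Fos among its leading genes, Hspa1a reached 152 CPM in fl/fl against 201 CPM in cKO cells, and Hspa1b 11.7 and 24.0 CPM. In cluster 5, led by Otud1, Rrad, Klf2 and Atf3 among other genes, Dnajb1 reached 187 and 214 CPM and Hspb1 74.7 and 35.4 CPM. Hspb1 did not share the high values of cluster 4, where it was at 6.28 and 7.63 CPM, below its 9.69 CPM in fl/fl cluster 0. The mitochondrial genes had low values in cluster 5, Hspd1 at 82.4 and 72.1 CPM and Hspe1 at 404 and 367 CPM. Hspd1 was nearly as low in cluster 4 (88.7 and 79.7 CPM). It was also low in cluster 6 (86.9 and 88.1 CPM), where the immediate early gene sums were 10103 and 10157 CPM. Over the 18 groups of cluster and library Hspb1 ranged 66.8-fold and Hspa1a 64.0-fold, with lowest values of only 2 and 3 UMIs. Dnajb1 ranged 10.1-fold, Hsph1 3.38-fold, Hspd1 3.38-fold, Hsp90aa1 2.47-fold, Hspe1 2.09-fold, Hsp90ab1 1.68-fold and Hspa8 1.44-fold.

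**Figure D2:**
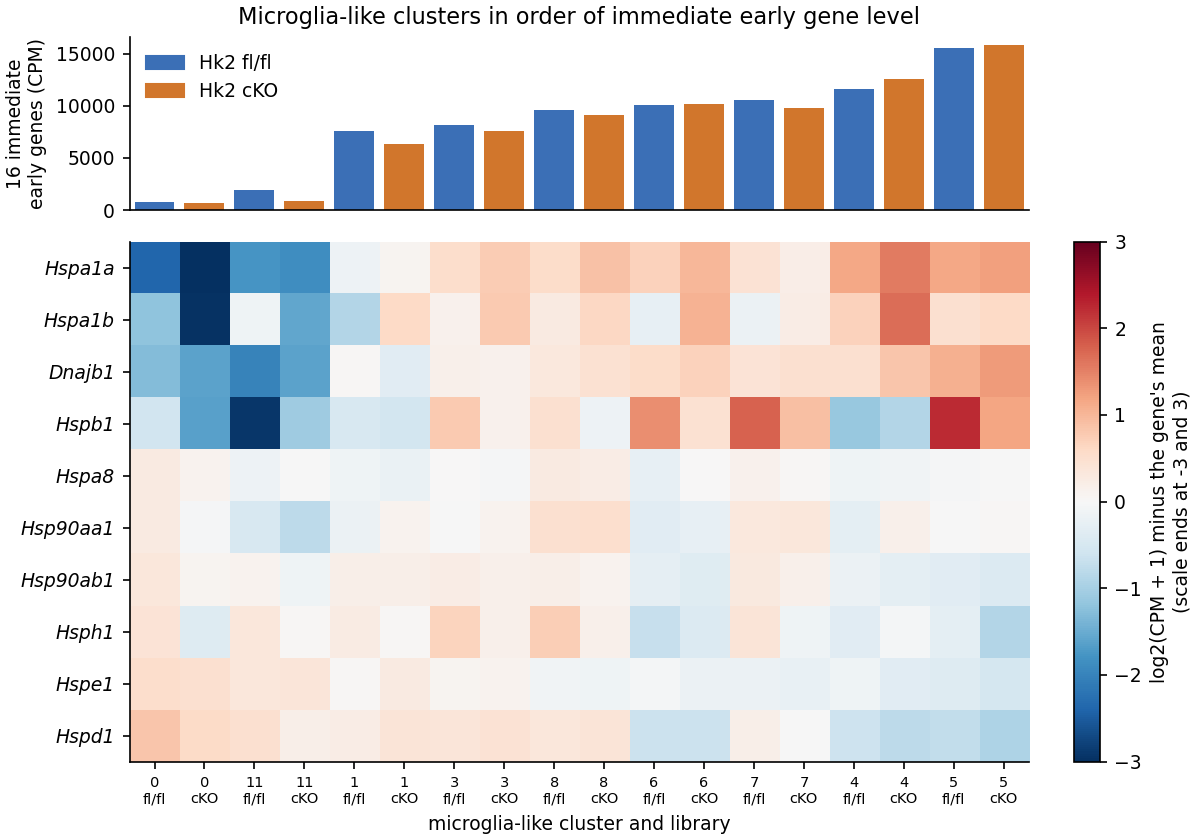
Top, summed CPM of 16 immediate early genes in each microglia-like cluster and library, clusters ordered by that sum; bottom, log2(CPM + 1) of each heat shock protein gene minus its mean over the 18 groups. Hspa1a and Dnajb1 are blue in clusters 0 and 11 and Hspe1 and Hspd1 are red there and blue in clusters 4 and 5.

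Across the 18 groups, log2(CPM + 1) of Hspa1a and of the immediate early gene sum had a Pearson r of 0.957, and Dnajb1 one of 0.936; these points share libraries and differ in depth and size, so the values are a description. Without clusters 0 and 11 (14 groups) Dnajb1 was at 0.964, Hspa1a was at 0.751 and Hspa1b went from 0.815 to 0.302. Hspb1 had an r of 0.634 over 18 and 0.420 over 14 groups. Hspe1 had an r of -0.894 over 18 and -0.951 over 14 groups, and Hspd1 one of -0.644 and -0.826. Hspd1 and Hsp90ab1 ran together (r = 0.911), as did Hspd1 and Hspe1 (0.795), while Dnajb1 and Hspe1 ran opposite to each other (-0.926).

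Among 2947 genes that averaged 50 CPM or more, the 5 non-members most like Hspa1a over the 18 groups were Zfp36, Kansl1l, Ppp1r10, Nfkbid and Tob2 (r from 0.965 to 0.974). Zfp36, which encodes an mRNA-destabilizing protein, is itself one of the 16 immediate early genes. Those most like Hspd1 were Serbp1, Snrpa1, Cct6a, Set and Eif5a (0.978 to 0.987); Cct6a encodes a subunit of the cytosolic chaperonin and Eif5a a translation factor. Those most like Hsp90aa1 were Ptbp1, Ctcf, Ppp4c, Nasp and G3bp1 (0.863 to 0.877).

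**Figure D3:**
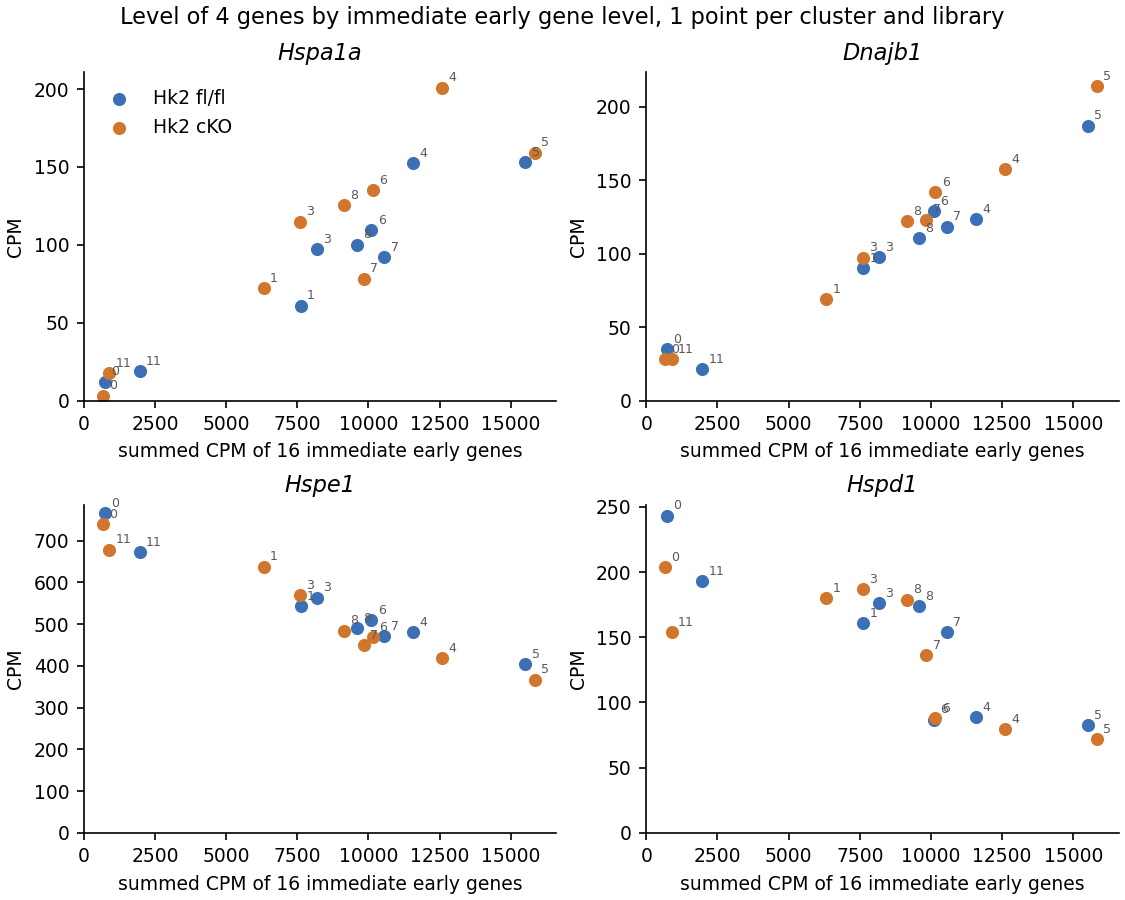
CPM of Hspa1a, Dnajb1, Hspe1 and Hspd1 (vertical axes) against the summed CPM of 16 immediate early genes (horizontal axes), 1 point per microglia-like cluster (number beside the point) and library (fl/fl blue, cKO orange). Hspa1a and Dnajb1 lie higher and Hspe1 and Hspd1 lower in groups with more immediate early gene UMIs.

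The same split was seen between single cells of equal depth. Microglia-like cells were thinned to 5000 UMIs each (2245 fl/fl and 1830 cKO cells; 220 and 178 shallower cells were left out) and divided into tertiles of the summed UMIs of the 16 immediate early genes, with limits common to both libraries: at most 32 UMIs in the lowest tertile (682 fl/fl and 679 cKO cells), more than 58 in the highest (757 and 571 cells). Such a tertile is a range and not a cell type, and 213 and 160 cells lay within 3 UMIs of the lower limit, 166 and 118 within 3 of the upper.

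From the lowest over the middle to the highest tertile, Hspa1a went from 53.1 over 87.1 to 165 CPM in fl/fl and from 34.5 over 116 to 231 CPM in cKO cells (log2 ratios of highest over lowest 1.62 and 2.71). Dnajb1 went from 51.9 over 116 to 175 CPM in fl/fl and from 43.9 over 133 to 215 CPM in cKO cells (1.74 and 2.26). Hspb1 went from 4.99 over 22.3 to 62.1 CPM in fl/fl and from 8.54 over 14.1 to 25.6 CPM in cKO cells (3.40 and 1.48). All 3 thus had their order of levels in common with the immediate early genes in both libraries. Hspa1b went from 7.62 over 6.45 to 10.3 CPM in fl/fl (log2 ratio 0.39, intervals overlapping) and from 4.42 over 15.2 to 23.8 CPM in cKO cells (2.20).

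The mitochondrial chaperonin genes went down along the same tertiles. Hspd1 was at 190 CPM in the lowest, 127 in the middle and 90.6 CPM in the highest tertile of fl/fl cells, and at 163, 112 and 87.6 CPM in cKO cells (log2 ratios -1.06 and -0.89). Hspe1 was at 622, 506 and 406 CPM and at 637, 462 and 353 CPM (-0.61 and -0.85). Hsp90ab1 followed at -0.38 and -0.25, while Hspa8 was at -0.15 and 0.01 and Hsp90aa1 at 0.15 and 0.52.

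Higher in the highest tertile were 3 of 9 measured members in fl/fl (Hspa1a, Dnajb1, Hspb1) and 4 in cKO cells (the same 3 and Hsp90aa1), where 28.2% and 33.4% of all genes were called higher. Lower were 3 in fl/fl (Hsp90ab1, Hspe1, Hspd1) and 2 in cKO cells (Hspe1, Hspd1), beside 15.9% and 17.1% of all genes. The median log2 ratio over all genes was 0.17 and 0.24. Clusters 0 and 11 made up 38.4% and 48.5% of the lowest tertile. Without them the log2 ratio of Hspa1a was 1.08 in fl/fl and 1.91 in cKO cells, that of Dnajb1 1.30 and 1.72, and that of Hspd1 -0.96 and -0.90. Over 6 alternatives of cells and settings, the Hspd1 ratio ranged from -1.33 to -0.41 in fl/fl and from -1.01 to -0.48 in cKO cells.

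Within single clusters the directions were mostly alike. When the cells of each cluster and library were split at the median immediate early gene count, Hspa1a was higher in the upper part in 18 of 18 groups (median log2 ratio 0.94), Dnajb1 in 17 of 18 (0.77) and Hspb1 in 13 of 18. Of these, 9, 8 and 3 were called higher. Hspe1 was lower in the upper part in 18 of 18 groups (-0.32, called in 7) and Hspd1 in 15 of 18 (-0.41, called in 4). Some signs rest on few UMIs, as for Hspa1a in cKO cluster 0, at 0 CPM in the lower and 6.25 CPM in the upper part. The share of all genes called was not taken for this split.

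Cells with a Hspa1a UMI also had more Dnajb1 and Hspa1b. After thinning, Hspa1a gave a UMI in 602 of 2245 fl/fl cells (26.8%, Clopper-Pearson 24.99 to 28.7) and 559 of 1830 cKO cells (30.5%, 28.4 to 32.7); before thinning the shares were 42.8% and 45.6%. Dnajb1 was at 150.5 CPM in the Hspa1a-positive and 104 CPM in the negative fl/fl cells, and at 189 and 97.2 CPM in cKO cells. Hspa1b was at 17.3 and 4.75 CPM in fl/fl and at 21.8 and 10.4 CPM in cKO cells. Hspa8 was nearly equal in positive and negative cells, at 951 and 930 CPM and at 930.2 and 925 CPM. Hsph1 was at 17.3 and 13.8 CPM in fl/fl and at 9.30 and 11.5 CPM in cKO cells, with overlapping intervals. Hspd1 was at 119 and 139 CPM in fl/fl and at 104 and 132 CPM in cKO cells, called lower in cKO. Of the 8 other measured members, 2 were called higher in positive cells in fl/fl (Dnajb1, Hspb1) and 2 in cKO (Dnajb1, Hsp90aa1), beside 3.85% and 9.88% of all genes. The immediate early gene sum was 12617 CPM in positive and 9043 CPM in negative fl/fl cells, and 13169 and 7620 CPM in cKO cells.

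Cell cycle groups gave the opposite order for Hspa1a, Dnajb1, Hsp90ab1, Hspe1 and Hspd1, and for Hspb1 except in cKO S cells. Hsp90aa1 was higher both in cycling cells and in the highest tertile. Of the thinned cells, 816 fl/fl and 527 cKO cells had UMIs of at least 3 of 12 G2/M genes, 271 and 218 of at least 3 of 12 S-phase genes without being in the G2/M group, and 1158 and 1085 were in neither group. The calls use these counts, and 191 and 110 cells had exactly 3 of the G2/M genes.

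Hspd1 differed most between cycling and other cells among the abundant members. It was at 227 CPM in S and 162 CPM in G2/M cells against 91.9 CPM in cells of neither group in fl/fl (log2 ratios 1.29 and 0.81), and at 174 and 172 against 89.4 CPM in cKO (0.96 and 0.94). Its partner Hspe1 differed less, at 569 and 538 against 472 CPM in fl/fl and at 541 and 570.0 against 445 CPM in cKO cells. Of the cells in the lowest tertile of immediate early genes, 49.3% in fl/fl and 44.6% in cKO were in the G2/M group. In the highest tertile the shares were 23.2% and 14.4%. The tertile ratios of both genes are thus not independent of the cycle groups.

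The cytosolic HSP90 genes were higher in cycling cells as well. Hsp90ab1 was at 2454 CPM in S and 2196 CPM in G2/M cells against 1724 CPM in fl/fl (log2 ratios 0.51 and 0.35) and at 2086 and 2072 against 1638 CPM in cKO (0.35 and 0.34). Hsp90aa1 had log2 ratios of 0.68 in S and 0.32 in G2/M cells in fl/fl and of 0.37 and 0.32 in cKO. Hsph1, at low counts, was at 22.9 and 18.6 against 10.0 CPM in fl/fl and at 13.8 and 12.9 against 9.22 CPM in cKO, where the intervals overlap. The log2 ratios of Hspa8 were 0.12 to 0.34.

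Hspa1a, Dnajb1 and Hspb1 were lower in G2/M cells. Hspa1a was at 77.2 CPM in G2/M against 123 CPM in cells of neither group in fl/fl (log2 ratio -0.67) and at 69.8 against 149 CPM in cKO (-1.08). Dnajb1 was at 88.2 against 139.6 CPM (-0.66) and at 86.5 against 148 CPM (-0.77). Hspb1 was at 15.7 against 43.7 CPM (-1.42) and at 9.11 against 17.9 CPM (-0.90). The immediate early gene sum moved the same way, at 7963 CPM in G2/M, 8282 in S and 11840 in neither group in fl/fl, and at 6285, 8071 and 11037 CPM in cKO. Within the lowest tertile of immediate early genes, Hspa1a had log2 ratios of G2/M over neither of -0.41 in fl/fl (intervals overlapping) and -1.23 in cKO cells, and 0 members were called lower in fl/fl and 1, Hspa1a, in cKO.

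In counts, G2/M cells had 4 of 9 measured members higher in fl/fl (Hsp90aa1, Hsp90ab1, Hsph1, Hspd1) and 3 in cKO (Hsp90ab1, Hspe1, Hspd1), where 17.7% and 17.6% of all genes were called higher. They had 3 lower in each library (Hspa1a, Dnajb1, Hspb1), beside 15.2% and 19.9% of all genes. S cells had 5 members higher in fl/fl (Hspa8 and the same as in G2/M cells) and 3 in cKO (Hsp90aa1, Hsp90ab1, Hspd1), beside 13.8% and 11.1% of all genes. They had 3 lower in fl/fl (Hspa1a, Dnajb1, Hspb1) and 2 in cKO (Hspa1a, Dnajb1), beside 7.67% and 6.69%.

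**Figure D4:**
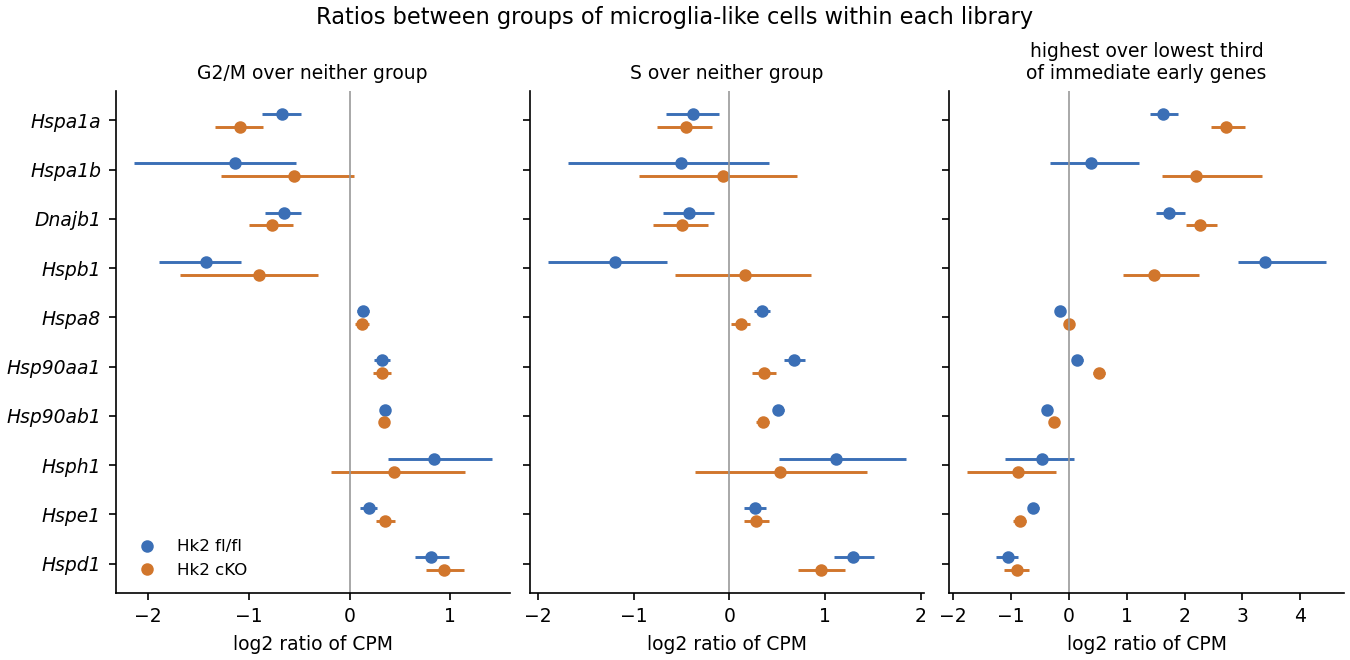
Log2 ratios of CPM between groups of thinned microglia-like cells within the fl/fl (blue) and cKO (orange) library, with 95% intervals from the counts: G2/M over neither cycle group, S over neither, and highest over lowest tertile of immediate early genes. Hspa1a, Dnajb1 and Hspb1 lie left of 0 for G2/M cells and right of 0 for the highest tertile, and Hspd1 and Hspe1 lie on the opposite sides.

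The genotype ratio was next taken within matched states. For Hspa1a its sign depended on the immediate early gene level. In the lowest tertile Hspa1a was at 53.1 CPM (45.6 to 61.4) in fl/fl and 34.5 CPM (28.5 to 41.3) in cKO cells, a log2 ratio of -0.61. In the middle tertile it was at 87.1 CPM (78.2 to 96.7) and 116 CPM (103 to 129), a log2 ratio of 0.40, and in the highest at 165 CPM (152 to 179) and 231 CPM (214 to 249), a log2 ratio of 0.48. Hspa1a was the only measured member called lower in the lowest tertile, where 4.03% of all genes were, and the only one called higher in the middle and in the highest tertile, where 2.93% and 4.01% of all genes were.

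The immediate early genes were themselves unequal within the lowest tertile, at a summed 3365 CPM in fl/fl against 2609 CPM in cKO cells. Without clusters 0 and 11, whose cells were more frequent in the cKO library, the sums there were 4637 and 4406 CPM, and Hspa1a was at 77.6 CPM (66.2 to 90.5) in 420 fl/fl and 60.6 CPM (49.6 to 73.3) in 350 cKO cells, a log2 ratio of -0.35 with overlapping intervals. In the highest tertile the sums were 17058 and 17765 CPM. Hspa1b was at 10.3 CPM (7.33 to 14.1) in fl/fl and 23.8 CPM (18.5 to 30.2) in cKO cells of that tertile, a log2 ratio of 1.13, and at 6.45 and 15.2 CPM in the middle one. Dnajb1 had log2 ratios of -0.24, 0.19 and 0.29 from the lowest to the highest tertile.

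Hspb1 was lower in cKO cells where it was most abundant. In the highest tertile it was at 62.1 CPM (54.4 to 70.6) in fl/fl and 25.6 CPM (20.04 to 32.1) in cKO cells, a log2 ratio of -1.25, and it was the only measured member called lower there, beside 2.09% of all genes. In cells of neither cycle group it was at 43.7 and 17.9 CPM (-1.24) and again the only member called lower, beside 2.23% of all genes. In the lowest tertile it was at 4.99 and 8.54 CPM, with overlapping intervals. Of the other measured members, only Hspd1 was called in the cycle groups and tertiles. In S cells it was at 227 CPM in fl/fl against 174 CPM in cKO cells (log2 ratio -0.38), beside 0.870% of all genes called lower. Within single clusters Hspb1 was called lower in 5 of 9 and Hspa1a higher in 2. Cluster 4 also had Hsp90aa1 (421 and 578 CPM) and Dnajb1 (123 and 158 CPM) called higher. Hsph1 was called lower in cluster 3 and Hspd1 in cluster 11. The share of all genes called was not taken for single clusters.

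**Figure D5:**
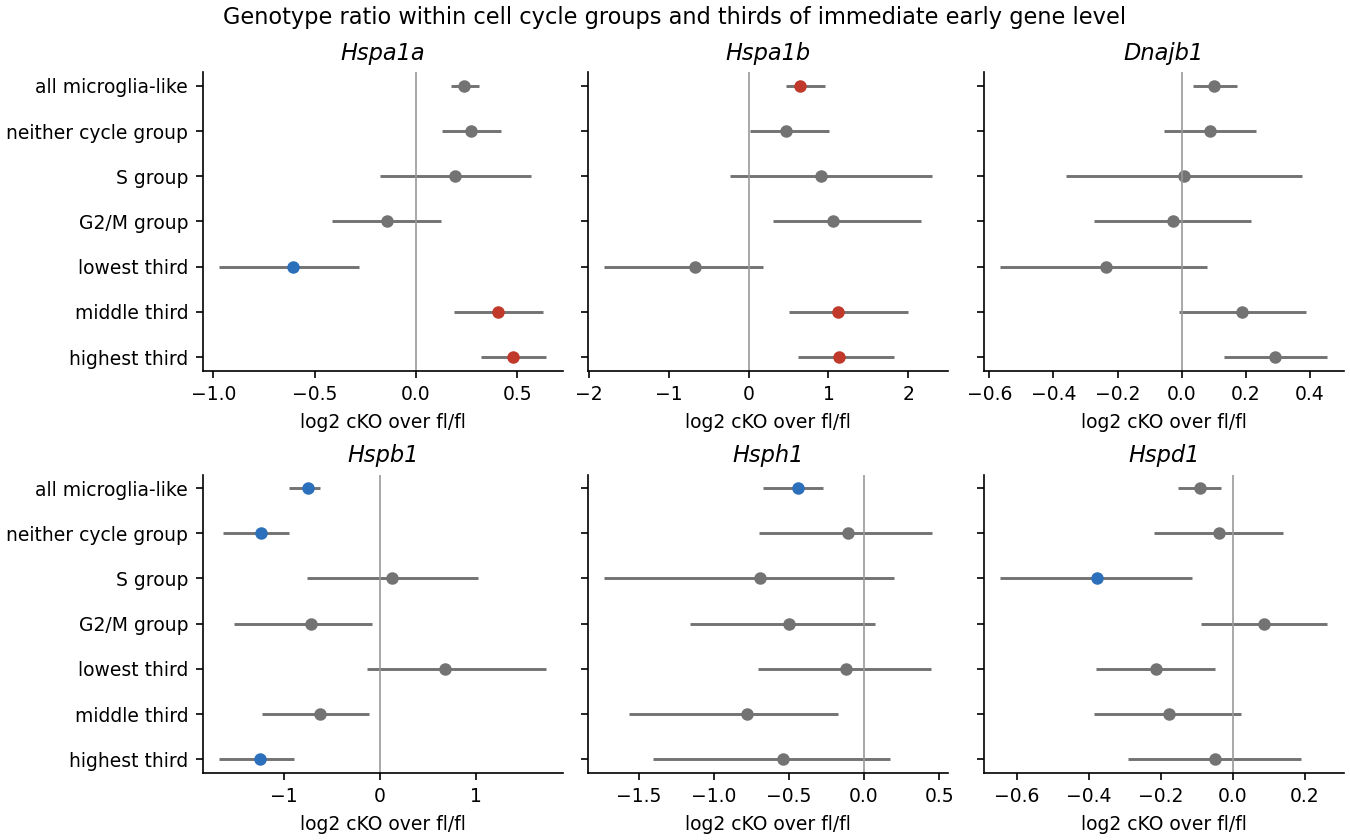
Log2 ratio of cKO over fl/fl CPM for 6 genes in all microglia-like cells and within cell cycle groups and tertiles of immediate early gene level, with 95% intervals from the counts; red and blue points mark ratios called higher and lower. Hspa1a lies at -0.61 in the lowest and at 0.48 in the highest tertile, and Hspb1 at -1.25 in the highest.

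The Hspb1 UMIs came from few cells. Of the 2465 fl/fl cells 290 had a Hspb1 UMI, and 64 of them, with 5 or more UMIs each and up to 34, held 593 of the 927 UMIs (64.0%). In cKO, 200 of 2008 cells had a UMI, and 21 with 5 or more, up to 20, held 200 of the 468 UMIs (42.7%). Without these 64 and 21 cells Hspb1 was at 10.7 CPM (9.54 to 11.9) in fl/fl and 9.55 CPM (8.44 to 10.8) in cKO cells, a log2 ratio of -0.14 with overlapping intervals. The cells left out were chosen by the same gene, so this ratio shows where the UMIs lay and is no check of the genotype ratio. The limit of 5 used unthinned counts. Median depths were 12730.5 and 18079 UMIs in the cells left out, against 10167 and 12012.5 in all microglia-like cells. The overall shares of cells with a Hspb1 UMI, 11.8% and 9.96%, were below those of the neutrophil gene S100a8 in the same cells.

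These cells were chosen by their Hspb1 count, so that gene's own difference is no result; other genes were compared. In fl/fl, Hspa1a was at 159 CPM in the 64 cells and 97.7 CPM in the others, and Dnajb1 at 139.8 and 109 CPM, the 2 other measured members called higher, beside 6.21% of all genes. In cKO, Hsp90aa1, at 814 and 541 CPM, was the 1 other member called higher, beside 6.54% of all genes. Of the 64 fl/fl cells 22 were in cluster 5 and 15 in cluster 3, and of the 21 cKO cells 9 were in cluster 3. The summed endothelial markers were at 53.9 CPM in the 64 cells and 63.0 CPM in the other fl/fl cells, and at 71.4 and 66.5 CPM in cKO. In microglia-like cells without any endothelial marker UMI, Hspb1 was at 30.2 CPM in fl/fl against 14.7 CPM in cKO.

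Across the other cell classes of the sort, Hspb1 stood out in endothelial-like cells, the lining of blood vessels. It was at 288 CPM (251 to 329) in 54 fl/fl and 331 CPM (300 to 365) in 93 cKO endothelial-like cells, against 28.4 and 16.5 CPM in microglia-like cells (log2 ratios 3.30 and 4.25). Hspb1 was the only measured member called higher there, beside 6.55% and 9.41% of all genes. In neutrophil-like cells Hspb1 was at 49.8 CPM in fl/fl against 2.42 CPM in cKO, but 30 of the 49 fl/fl UMIs came from 1 cell and only 7 of 82 cells had any.

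Neutrophil-like cells (82 fl/fl and 89 cKO cells) had low levels of most members. Hspa8 was at 551 and 540 CPM, where microglia-like cells had 954 and 939 CPM, Hsp90ab1 at 985 and 864 against 2098 and 1905 CPM, Hspe1 at 235 and 207 against 519.8 and 516 CPM, and Hspd1 at 55.9 and 53.2 against 149 and 140.2 CPM. Called lower were 7 of 9 measured members in fl/fl and 8 in cKO, beside 40.1% and 53.4% of all genes. Hspa1a was lower too, at 56.0 and 65.3 CPM, at an immediate early gene sum of 7879 and 6751 CPM. The summed microglial markers were at 1242 and 1201 CPM in neutrophil-like cells, and the part of microglial RNA in these levels was not tested.

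The cells of cluster 15, led by H2-Eb1, Cd74 and Cd209a among other genes (54 and 35 cells, left unnamed), had more Hspa1a, at 144 CPM (121 to 171) in fl/fl and 181 CPM (145 to 223) in cKO, with immediate early gene sums of 8354 and 9060 CPM, close to those of microglia-like cells (9425 and 8928 CPM). Dnajb1 did not share this in cluster 15. It was at 100.3 against 111 CPM in fl/fl microglia-like cells, with overlapping intervals, and at 82.0 against 119 CPM in cKO, called lower. The summed microglial markers of cluster 15 were at 1285 and 915 CPM. Monocyte-like cells had Hspa1a at 84.4 CPM in 63 fl/fl cells and 1 UMI, 5.55 CPM (0.14 to 30.9), in 21 cKO cells, with immediate early gene sums of 8998 and 10372 CPM. The summed microglial markers were at 950 CPM in the fl/fl and 22.2 CPM in the cKO monocyte-like cells, and the part of this in the Hspa1a difference was not tested.

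The barcodes that failed the filter, with a median of 23.4% mitochondrial UMIs in 263 fl/fl and 47.9% in 306 cKO barcodes, had more Hspb1 than microglia-like cells, at 92.6 CPM (67.5 to 124) and 134 CPM (104 to 168). Their Hspa1a differed between libraries, at 144 CPM (112 to 182) in fl/fl and 35.7 CPM (21.5 to 55.8) in cKO. Hspd1 was lower than in microglia-like cells in both, at 67.9 and 75.3 CPM. So were Hspa8 (586 and 476 CPM), Hsp90ab1 (1234 and 1037 CPM), Hsp90aa1 (374 and 322 CPM), Hspe1 (325 and 250.2 CPM) and Dnajb1 (51.4 and 54.6 CPM). Hsph1 differed in direction between libraries (24.7 and 5.64 CPM). The CPM total includes the mitochondrial UMIs, and the share of all genes that were lower was not taken. These barcodes were not assigned to cell classes.

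Other chaperone genes were counted by lists of their roles. Between genotypes 0 of 11 measured cytosolic HSP70, HSP110 and J-domain genes, 0 of 14 co-chaperones of HSP90 and HSP70, 0 of 8 subunits of the cytosolic chaperonin TRiC, 0 of 9 other mitochondrial chaperones and proteases, 0 of 8 endoplasmic reticulum chaperones, 0 of 1 other small heat shock protein and 0 of 2 genes of the heat shock factor list were called. The 2 measured genes of that last list were Hsf1 and Hsbp1, which encodes a heat shock factor binding protein. Over all genes only 6.40% were called either way, so counts of 0 in lists this short say little. The median log2 ratios of these lists, in the same order, were -0.02, 0.00, -0.05, -0.04, 0.14, 0.29 and -0.14, against -0.04 over all genes. The TRiC subunit Tcp1 was at 195 and 162 CPM in fl/fl and cKO cells, the endoplasmic reticulum chaperone Hyou1 at 20.8 and 25.8 CPM, the small heat shock protein gene Hspb3 at 30.4 and 37.4 CPM, and Hsf1, the main activator of heat shock genes, at 21.6 and 18.0 CPM. Of the immediate early genes 0 of 16 were higher and 2 lower in cKO cells (Klf2, at 560 and 414 CPM, and Klf6, at 1097 and 840 CPM), beside 2.88% of all genes called lower. Of the interferon response genes 12 of 12 and of the chemokine and cytokine genes 9 of 10 were higher in cKO cells. Their median log2 ratios were 1.53 and 0.69, where 3.52% of all genes were called higher. These lists were chosen with earlier results of these data known, so their counts are a description only.

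The TRiC subunits were mostly higher in G2/M cells and lower at high immediate early gene level. Over all genes, 17.7% and 17.6% were called higher in G2/M cells in fl/fl and cKO, and 28.2% and 33.4% higher and 15.9% and 17.1% lower in the highest tertile. They were higher in G2/M cells for 6 of 8 in fl/fl and 7 of 8 in cKO (median log2 ratios 0.59 and 0.69) and lower in the highest immediate early gene tertile for 7 and 8 of 8 (-0.73 and -0.76). The co-chaperones were higher in G2/M cells for 8 and 6 of 14 and lower in the highest tertile for 7 and 8 of 14. Fkbp4, an HSP90 partner, had log2 ratios of 1.04 and 1.07 for G2/M and of -1.16 and -1.21 for the highest tertile.

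Among J-domain genes, Dnajb4 and Dnajb9 were lower in G2/M cells and higher in the highest tertile in both libraries, as Dnajb1 was, while Dnajb11 was called the other way in both. Dnajb4 had log2 ratios of -0.66 and -1.16 for G2/M and of 1.43 and 2.30 for the highest tertile, and Dnajb9, of the endoplasmic reticulum, of -0.93 and -1.36 and of 1.79 and 1.99. Dnajb11, also of the endoplasmic reticulum and chosen after its values were seen, had log2 ratios of 0.45 and 0.45 for G2/M and of -0.57 and -0.79 for the highest tertile. Dnajc3 was called lower in the highest tertile in both libraries (-0.44 and -0.43), Dnajc2 higher in G2/M cells in both (0.62 and 0.60), and Dnaja2 in neither contrast. Of the cytosolic list 4 and 5 of 11 were higher and 0 lower in the highest tertile. Hspa5, the HSP70 of the endoplasmic reticulum, was at 0.52 and 0.61, while 5 of the 8 measured genes of that list were lower in the highest tertile in each library. Of the mitochondrial list 3 of 9 were higher in G2/M cells in each library, and its most abundant gene, Hspa9, the mitochondrial HSP70, had log2 ratios of 0.44 and 0.46. Hsf1 was at 0.66 and 1.10 for the highest tertile.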

How the data were processed

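The 2 deposited matrices of raw UMI counts (1 per genotype) were used. They were made with bcl2fastq and Cell Ranger 3.1.0 on GRCm38, per the submitters' processing notes. Barcodes under 500 genes or over 10% mitochondrial UMIs were left out. Scrublet called 2 and 1 doublets, too few to have worked, so doublets remain. Cells were clustered (scanpy 1.11.5, Leiden with igraph 0.11.9, resolution 0.8, 2000 variable genes without the 10 members, 30 components, 15 neighbours, seed 1). Clusters were named by at least 3 markers found in at least 25% of cells at 4-fold with 10 CPM added, and as microglia where the 16 markers were in at least 80% of cells on average. These naming thresholds were set after the clusters were seen.

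Counts were summed per library and group and scaled to CPM. Log2 ratios add 1 CPM, and CPM intervals are exact Poisson (95%, counting error only). No p-value was computed, since each genotype is 1 library, and p-values across cells would not measure genotype. States used cells thinned to 5000 UMIs. The procedure was tested on simulated data. Alternatives included TMM factors (edgeR 4.0.16, R 4.3.3), other filters, resolutions, depths and score thresholds.

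The members and gene lists were chosen with earlier results of these data known. All members were named, and of each other list the 2 genes of largest absolute log2 ratio that averaged 10 CPM or more and the most abundant gene could be named. Cluster-leading genes were named from the top 10 by fold. Hspd1 and Hspe1 have pseudogene rows, with 17 and 9 UMIs (5 rows) and 1 and 0 UMIs (6 rows) in the fl/fl and cKO microglia-like cells.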

Additional observations from a re-analysis of the deposited data

Results flagged for a closer look

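The log2 ratio of cKO over fl/fl for Hspa1a was -0.61 in the lowest and 0.48 in the highest tertile of immediate early gene level. The pair was singled out because the 2 groups of cells pointed in opposite directions. The difference between them was not tested, since each genotype is 1 library. In the lowest tertile the immediate early genes themselves were at 3365 CPM in fl/fl against 2609 CPM in cKO cells, and without clusters 0 and 11 the ratio there was -0.35 with overlapping intervals.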

How the results depend on the processing

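No paired analysis was possible because each genotype is 1 library. Of the counts of members called, 85 were within 1.5 times the value reported and 23 were not. Against 2 members lower in cKO cells (Hsph1 and Hspb1), 1 was called in 5 alternatives: Hspb1 with sums of thinned cells and in cells of neither cycle group, Hsph1 over all kept cells (Hspb1 -0.22) and without cells of at least 5 Hspb1 UMIs, and in the lowest immediate early gene tertile neither of them but Hspa1a. Members higher in fl/fl G2/M cells went from 4 to 2 at 2500 UMIs, and in cKO from 3 to 5 unthinned. Members lower in G2/M cells went from 3 to 0 in fl/fl and from 3 to 1 in cKO within the lowest tertile. In S cells, members higher went from 5 to 3 in fl/fl with 2 of 12 genes required and from 3 to 5 in cKO with 5 of 12. Members lower in S cells went from 3 in fl/fl to 1 with 2 of 12 genes, 0 with 5 of 12 and 0 in the lowest tertile. In cKO they went from 2 to 0 with 2 of 12, 1 with 5 of 12, 1 unthinned, 0 at 2500 UMIs, 0 in the lowest tertile and 1 without clusters 0 and 11. Along the tertiles, members lower went from 2 to 4 in cKO with unthinned sums and from 3 to 1 in fl/fl in cells of neither cycle group. The 1 member lower in cKO in the lowest tertile was 0 without clusters 0 and 11. The sign changed in 28 of 560 alternatives of single log2 ratios, 22 of them of values not called, among them the genotype ratio in the lowest tertile of Hspa1a (0.24 to -0.61), Dnajb1 (0.10 to -0.24) and Hsp90aa1 (0.03 to -0.19). The other 6 were of called values. In the lowest tertile these were the genotype ratios of Hspa1b (-0.67) and Hspb1 (0.67), Dnajb1 in fl/fl S cells (0.31) and Hspb1 in cKO G2/M cells (0.21). At 2500 UMIs they were Hspa1b in fl/fl G2/M cells (0.50) and Hspb1 in fl/fl S cells (0.29). The cause was not tested. The alternatives that leave out clusters 0 and 11 or the cells of at least 5 Hspb1 UMIs, and the equal weighting of clusters, were chosen after seeing the data. TMM moved the median of all genes from -0.04 to 0.00 on the log2 scale. Depth limits Hspa1b, Hsph1 and Hspb1 most.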
